A study of Arabidopsis thaliana with 6 samples.

Results

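The data described here are the transcript signals of wild-type Arabidopsis thaliana seedlings of the accession Col-0, a laboratory strain whose genome serves as the species' reference. The members are the 3 arrays labelled Col-0, out of 6 in the series; the other 3 arrays, of the mutant rns2-2 in the same background, were not compared here. Whole seedlings were raised for 10 days on MS-agar at 21 °C with 16 h of light a day at 120 µmol/m2/s, so roots, hypocotyls, cotyledons and young leaves were measured together. The labels describe the arrays as independent biological samples. Each array, an Affymetrix ATH1 chip with short oligonucleotides grouped into probe sets, was hybridised with amplified, biotin-labelled material made from 250 ng of total RNA. A value is a log2 signal, so 1 unit is a factor of 2 in brightness. A signal depends on the probes as well as on the transcript, and the ranks below are ranks of brightness, not of transcript number.

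A seedling of this age carries out photosynthesis. Light-harvesting proteins and 2 photosystems in the thylakoid membrane drive electron transport and an ATP synthase, and the Calvin cycle fixes carbon in the stroma. The subunits of these complexes are encoded partly in the nucleus and partly in the small genome of the plastid. The root meanwhile takes up water and ions through epidermal cells that form hairs, and the shoot meristem adds leaves. Genes for flowers, pollen and seeds belong to later stages.

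The deposited table held 22746 probe sets besides 64 Affymetrix controls. Of these, 13436 were paired with a single locus each, for 13286 loci, and the brightest probe set stood for a locus with several. The other 9310 probe sets are described in counts only, and they were brighter (median 7.16) than the named loci (median 6.19). Of the 100 brightest probe sets, 27 were single-locus ones, so the named ranking covers only a part of the bright end.

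The arrays did not stand at equal distances from each other. Replicates 2 and 3 differed by 1 log2 unit or more at 18 of 22746 probe sets (0.0791%), whereas replicates 1 and 2 did so at 1691 (7.43%) and replicates 1 and 3 at 1690 (7.43%). Pearson's correlation across probe sets was 0.996 between replicates 2 and 3 and 0.965 in both pairs with replicate 1, and is given as a description, since probe sets are not independent. A mean ± SD over the 3 arrays therefore mostly sets replicate 1 against a close pair, and the array values are given beside it for the genes named. Replicate 1 also had the largest difference between 3' and 5' probe sets of the GAPDH control, a sign of RNA quality, at 3.80 log2 units, beside 2.12 in replicate 2 and 2.46 in replicate 3. For the actin control the difference was 4.94, 4.35 and 4.72 in replicates 1, 2 and 3. The bacterial poly-A RNA controls had a mean 3' signal of 7.86 in replicate 1, beside 7.0 and 7.09 in replicates 2 and 3. The BioB control, also bacterial, averaged 7.72, 7.01 and 6.23 in replicates 1, 2 and 3, so replicates 2 and 3 differed there too. The part of these differences in the results below was not tested.

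Levels over the 22746 probe sets, as means of the 3 arrays, ran from 3.35 to 14.44. The median was 6.59, the 25th and 75th percentiles were 4.82 and 8.31, and the 99th was 12.42. On a linear scale the brightest 1% of probe sets carried 21.3% of the summed signal and the brightest 10% carried 64.2%. No detection calls were used. As a gauge of the dim end, the 3 control probe sets for the trp genes of a bacterium, whose transcripts a plant does not make, read from 3.66 to 4.18 over the arrays. A total of 1563 loci (11.8%) had a mean at or below 4.18. The arrays differed in this floor: the mean of these controls was 3.81, 3.91 and 4.01 in replicates 1, 2 and 3. When each array was held to its own highest control value and all 3 had to agree, 882 loci remained at the floor.

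The 3 classes of loci occupied different parts of this scale. The 69 plastid-encoded loci had a median level of 11.12, the 12224 nuclear protein-coding loci 6.48 and the 989 pseudogenes, disabled copies of genes or mobile elements, 4.21. Of the pseudogenes, 475 (48.0%) lay at or below the bacterial control, against 1088 (8.85%) of all 12293 protein-coding loci. Only 15 pseudogenes were brighter than the median probe set. The brightest, AT1G35612, named like the next after its values were seen, stood at 9.61, 8.10 and 8.21 in replicates 1, 2 and 3, at percentile 83.3 of the named loci. The next, AT4G08220, stood at 7.90, 7.88 and 7.83, with an SD of 0.04. A pseudogene's probes may also bind the transcript of a related gene, which was not tested.

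**Figure D1:**
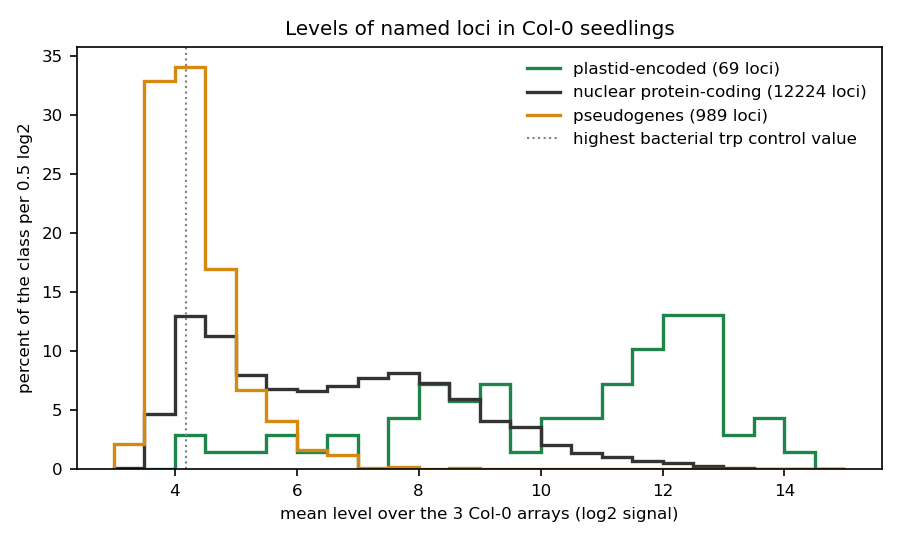
Levels of the named loci in Col-0 seedlings. The x axis is the mean log2 signal over the 3 arrays, the y axis the percent of each class in bins of 0.5, and the dotted line the highest value of the bacterial trp controls (4.18). Pseudogenes gather near the line (median 4.21), nuclear protein-coding loci spread widely (median 6.48) and most plastid-encoded loci lie at the bright end (median 11.12).

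The brightest named loci included many of the photosynthetic machinery and of the ribosome. Among the 30 brightest, grouped by role after their values were seen, 8 were plastid-encoded (among them clpP, for a protease subunit, and rpoA, for an RNA polymerase subunit), 9 were nuclear genes of photosynthesis, 6 encoded proteins of the cytosolic ribosome, 1 a protein of the plastid ribosome, and 6 had other roles. Their levels ran from 12.91 to 14.24, and none ranged over 1 log2 unit or more among the arrays. That range was seen in 9.00% of all probe sets, 7.53% of the named loci and 13.7% of the brightest 10% of probe sets. The 30 were chosen by their mean over the arrays, which tends to leave out a locus that is low on 1 array. Their small ranges are therefore partly a result of the choice. The 30th, AT3G09200, stood at 12.91 and the locus after it at 12.90, so the end of this list is not a step in level. Neighbours in the order lay closer together than the SD of many of them (0.03 to 0.46).

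At the top of the named loci stood atpE, the epsilon subunit of the plastid ATP synthase, with 14.18, 14.25 and 14.30 in replicates 1, 2 and 3. Its neighbour in the plastid genome, atpB, which encodes the catalytic beta subunit, stood at 13.71, 14.06 and 13.94. RCA, Rubisco activase, which frees the active site of the carbon-fixing enzyme, was the brightest of the named nuclear genes, at 13.96, 13.90 and 13.91. Among all probe sets, named or not, atpE ranked 2 and RCA 10. These 3 genes were bright on every array, and RCA had the smallest SD of the 30 (0.03). The plastid genes psbM and ndhI followed. The first, for a small subunit of photosystem II, averaged 13.86 ± 0.06 (SD, n = 3), and the second, for a subunit of the NADH dehydrogenase-like complex, averaged 13.62 ± 0.07 (SD, n = 3).

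The nuclear photosynthesis genes among the 30 lay between 13.14 and 13.92, with a median SD of 0.08. AT2G26500, for the PetM subunit of the cytochrome b6f complex, stood at 13.39, 13.62 and 13.73 in replicates 1, 2 and 3. PSAE-1 and PSAN, of photosystem I, averaged 13.57 ± 0.09 and 13.38 ± 0.04 (SD, n = 3 each). LHCB4.1, a light-harvesting protein of photosystem II, averaged 13.56 ± 0.06, PSBY 13.20 ± 0.13 and PSBW, both small proteins of that photosystem, 13.14 ± 0.08 (SD, n = 3 each). ATPC1, the gamma subunit of the ATP synthase, averaged 13.20 ± 0.05, and AT4G01150, known as CURT1A, which bends the thylakoid membrane at the edges of its stacks, 13.22 ± 0.11 (SD, n = 3 each). Their closeness follows from the cut, since each had to be among the 30 brightest, so it does not compare the complexes. LHCB4.2 and LHCB4.3, outside the 30, averaged 12.23 and 9.17.

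Of the 6 genes for the cytosolic ribosome among the 30, 5 were lowest in replicate 1, though AT3G60245 was level there with replicate 2 (13.14 in both). Replicate 1 was also lowest in 17 of all 30 loci, and in 5 of the 6 with other roles, so this is not particular to ribosome genes. AT5G20290, for a small-subunit protein, stood at 13.18, 13.56 and 13.61 in replicates 1, 2 and 3. AT3G49910 stood at 12.67, 13.05 and 13.16, and AT3G09200, for the acidic stalk protein P0, at 12.66, 13.09 and 12.98. The exception, AT1G52300, was lowest in replicate 2 (13.07, 12.98 and 13.27). AT2G43030, for a large-subunit protein of the plastid ribosome, stood at 12.82, 13.06 and 13.11. The widest range among these genes was 0.49 log2 units, in AT3G49910.

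The other bright genes were of mixed function. GAPC2, a cytosolic glyceraldehyde-3-phosphate dehydrogenase of glycolysis, averaged 13.08 ± 0.10, and cICDH, the cytosolic isocitrate dehydrogenase that supplies NADPH, 13.00 ± 0.11 (SD, n = 3 each). AT2G45180, of the lipid-transfer protein family, averaged 13.38 ± 0.12 and AT1G78040, of a family related to a pollen allergen of olive, 13.06 ± 0.07 (SD, n = 3 each). AT3G15450 stood at 13.25, 13.48 and 13.60 in replicates 1, 2 and 3. The least steady of the 30 was AT1G09310, at 12.47, 13.19 and 13.31 (SD 0.46).

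**Figure D2:**
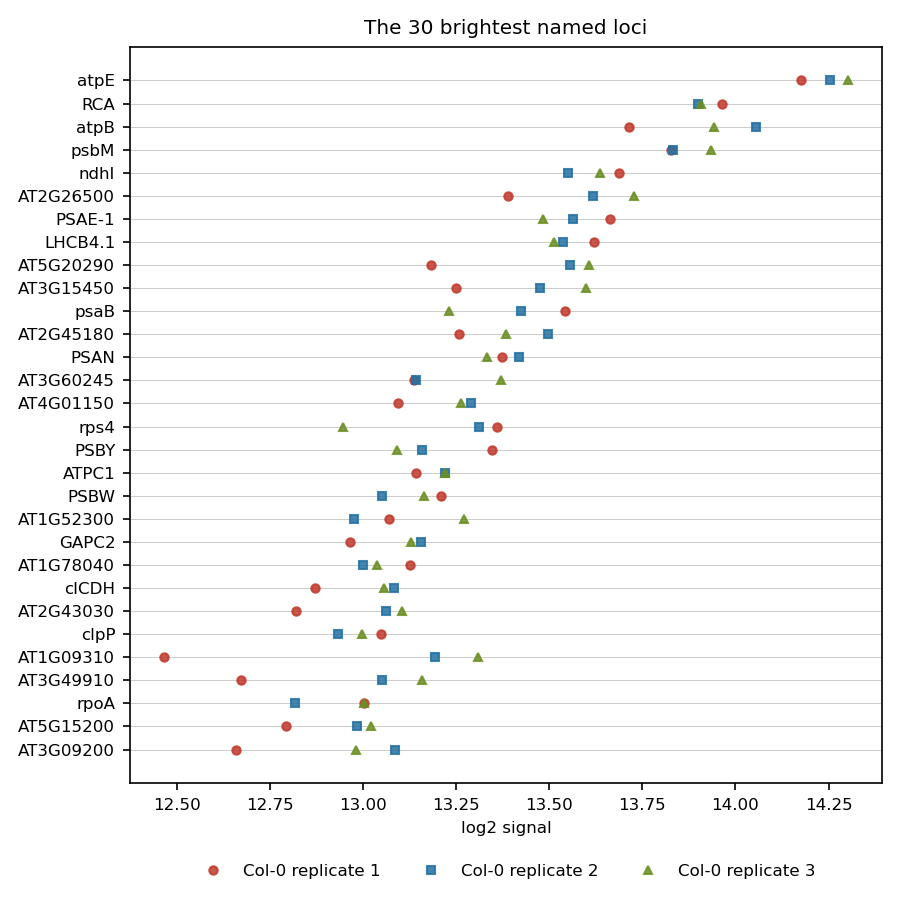
The 30 brightest named loci, brightest at the top. Each row is a locus, the x axis is the log2 signal, and the 3 symbols are the 3 Col-0 arrays. The symbols of most loci overlap those of their neighbours in the order, and AT1G09310 has the widest spread (12.47 to 13.31).

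Marker genes of organs and cell types were matched by locus from 13 lists. Signals were mostly bright for leaf genes, bright or dim for root genes and dim for flower genes. The lists named 217 loci, of which 32 had a single-locus probe set, so most of each list is not described here. The lists for vasculature, pollen, seed and embryo, and dividing cells had no such locus. Members called measured are those with a single-locus probe set, and the unnamed probe sets may read others. Over all named loci the median level was 6.19.

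Leaf mesophyll markers were the brightest group. The 7 measured of 44 light-harvesting and photosystem genes had a median of 13.20, and all 7 were above the median probe set. LHCB4.2 was the exception to their steadiness, at 13.71 in replicate 1 and 11.58 and 11.41 in replicates 2 and 3. LHCB4.3, the third gene for the same light-harvesting protein, was dimmer, at 8.92, 9.39 and 9.21. The 5 measured of 25 genes of carbon fixation and photorespiration had a median of 12.69 and a range from 12.27 to 13.92. PRK, phosphoribulokinase of the Calvin cycle, averaged 12.80 ± 0.20, SBPASE, a phosphatase of the same cycle, 12.27 ± 0.19, and HPR, the peroxisomal hydroxypyruvate reductase of photorespiration, 12.69 ± 0.33 (SD, n = 3 each). All 3 were brightest in replicate 1.

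Root markers divided into bright and dim genes. PYK10, the beta-glucosidase of endoplasmic reticulum bodies in roots, stood at 12.45, 12.45 and 12.73 in replicates 1, 2 and 3. NAI2, needed to form these bodies, stood at 10.17, 10.20 and 10.47. The expansins of root hairs were far dimmer: EXPA7 stood at 5.50, 5.80 and 6.32, and EXPA18 at 5.65, 5.58 and 6.07, both below the median probe set but above the bacterial control. All 4 genes were highest in replicate 3, and the list's median deviation from the 3-array mean was 0.25 there, against 0.08 for all named loci.

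The measured regulators of stomata and of the shoot meristem lay below the median probe set (6.59). The stomatal regulators SPCH, MUTE and FMA (FAMA), which act at successive steps from precursor to guard cell, averaged 5.69 ± 0.23, 4.84 ± 0.02 and 6.25 ± 0.21 (SD, n = 3 each). CLV3, the peptide signal of the shoot meristem, stood at 4.31, 4.30 and 4.30, close to the bacterial control. The 3 measured of 16 flower and anther genes were as dim: SPL, needed for spore formation, averaged 4.50 ± 0.16, AMS, a regulator of the anther tapetum, 4.29 ± 0.17, and the anther gene AT5G07230 4.28 ± 0.23 (SD, n = 3 each). In a whole seedling, fewer cells of a type and less RNA per cell cannot be told apart.

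Genes often used as references were steady. AT2G28390, a gene of the SAND family, stood at 8.11, 8.08 and 8.10 in replicates 1, 2 and 3, and AT4G34270, of the TIP41 family, at 8.64, 8.70 and 8.80. PEX4, which takes part in peroxisome function, stood at 9.71, 9.66 and 9.76. The median SD of the 4 measured of 19 listed members was 0.06, against 0.17 over all named loci. The measured stress genes, 4 of 18 listed, were not steady: 3 of the 4 ranged over 1 log2 unit or more. The share was 7.53% of all named loci and 13.0% of those above the median probe set, where 3 of the 4 stress genes lay. STZ, a zinc finger regulator also called ZAT10, stood at 9.30, 10.61 and 10.26, PDF1.2, a plant defensin, at 5.74, 6.79 and 6.97, and the cold-induced COR15A at 6.90, 8.28 and 6.12. Unlike the others, COR15A differed most between replicates 2 and 3. GI, the 1 measured clock gene, stood at 7.10, 8.26 and 8.24.

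**Figure D3:**
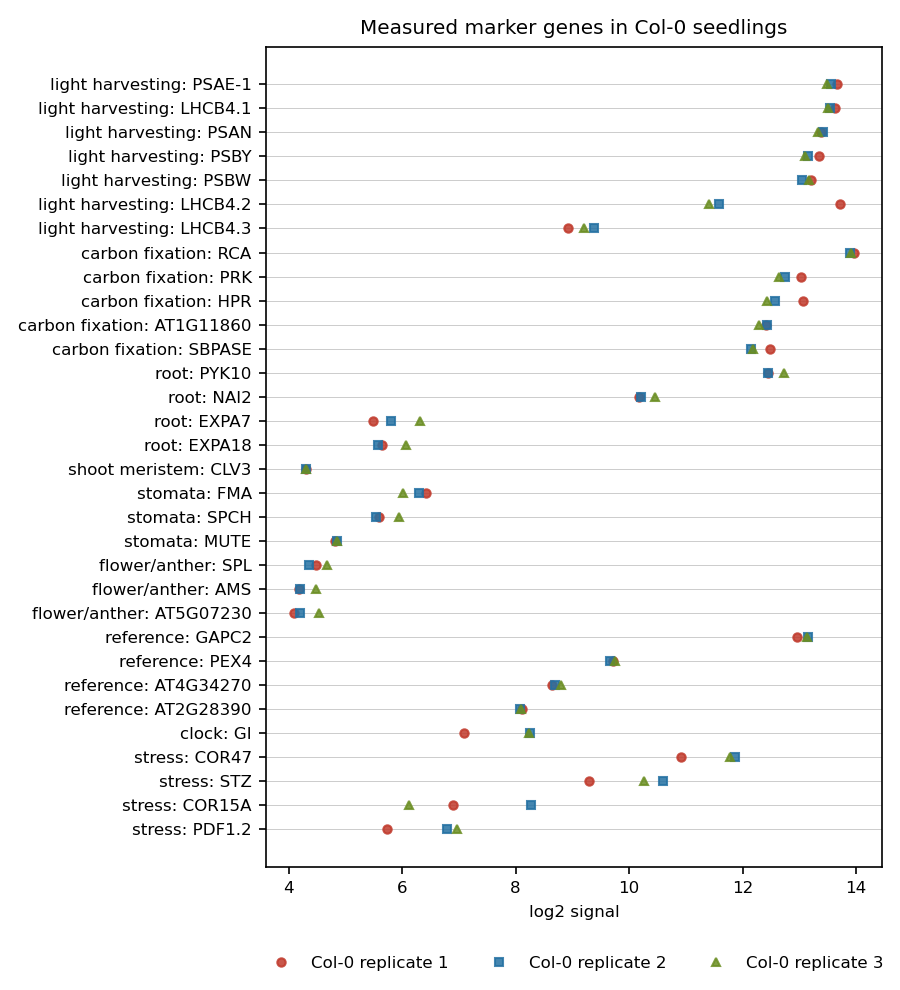
The 32 measured marker genes, grouped by list. The x axis is the log2 signal and the 3 symbols are the 3 Col-0 arrays. Light-harvesting and carbon fixation genes lie at the bright end, flower and meristem genes near 4, and LHCB4.2, GI and the stress genes have separated symbols.

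The plastid-encoded loci were bright as a class but uneven within each complex. Of the 69, 61 were above the median probe set, and they ran from 4.30 for rpoB, of the plastid RNA polymerase, to 14.24 for atpE. The 6 genes of the ATP synthase alone spanned most of this range, with atpI at 5.27, atpF at 9.15, atpH at 10.19, atpA at 12.41, atpB at 13.90 and atpE at 14.24 (means of 3 arrays). In photosystem I, psaC and psaA averaged 6.54 and 6.88, whereas psaB, whose product pairs with that of psaA in the reaction centre, averaged 13.40. The RNA polymerase genes rpoB and rpoA averaged 4.30 and 12.94. Since subunits of 1 complex differed this much in signal, these levels do not give the proportions of the proteins. The labelling started from the 3' ends of transcripts, and how well it captures plastid transcripts was not tested.

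Plastid levels also depended on the array. A range of 1 log2 unit or more was seen in 27 of the 69 loci (39.1%), beside 7.53% of all named loci and 13.0% of those above the median probe set. Replicate 1 was highest in 26 of these 27. The median deviation of the 69 from their 3-array means was 0.28, -0.18 and -0.10 in replicates 1, 2 and 3. The plastid genes with the widest ranges were psaC, at 8.34, 5.86 and 5.43, atpH, at 11.47, 10.07 and 9.04, and psbT, a small photosystem II gene, at 10.74, 8.41 and 9.08. Of the 15 plastid ribosome genes, 3 reached this range (median SD 0.23), and of the 4 RNA polymerase genes 0 did. Differences between the complexes were not tested. Without replicate 1, 2 of the 69 plastid loci differed by 1 log2 unit or more, atpH and rps18. The 3' minus 5' differences and the poly-A control signals given above were also highest in replicate 1, and their part in this was not tested.

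At the other end of the scale, the 15 dimmest loci lay between 3.35 and 3.48. Of these, 10 were pseudogenes and 5 protein-coding. All 15 were below the lowest value of the bacterial controls (3.66) in their means, and all 15 were highest in replicate 3, the array with the highest floor. The dimmest, AT4G10830, stood at 3.28, 3.28 and 3.48 in replicates 1, 2 and 3, and AT1G54926 at 3.29, 3.26 and 3.56. The protein-coding AT3G19780 stood at 3.28, 3.36 and 3.58, and AT1G63070 averaged 3.46 ± 0.06 (SD, n = 3). Their order has no meaning, since the gaps between them were smaller than the shift between arrays.

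Gene families differed in their usual level. The families here are loci that share the letters of their symbol, with 8 or more loci each, a grouping chosen after the data were seen that can miss members or join unrelated genes; 28 such groups were found. The brightest by median was ALDH, the aldehyde dehydrogenases, with 8 loci between 8.12 and 11.30 (median 10.25). ALDH6B2, of valine breakdown, stood at 10.73, 11.57 and 11.60 in replicates 1, 2 and 3, and ALDH7B4 at 10.65, 11.56 and 11.54. ALDH11A3, the non-phosphorylating glyceraldehyde-3-phosphate dehydrogenase, ran the other way, at 11.81, 10.53 and 10.50. The autophagy prefix ATG (8 loci, median 8.70) was also bright, and all its loci but ATG3 were ATG8 genes. So were the prefixes SEC (9 loci, 8.29) and VPS (10 loci, 8.24), mostly of vesicle trafficking.

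In some families a bright member stood above a dim median. SWEET11, a sucrose exporter of leaf phloem parenchyma, averaged 11.35 ± 0.10, while the 14 SWEET loci had a median of 5.13. TET8, a tetraspanin of extracellular vesicles, averaged 11.24 ± 0.23, against a median of 5.16 for 15 TET loci. LCR69 and LCR68, small cysteine-rich proteins, averaged 12.05 ± 0.67 and 11.63 ± 0.22, against a median of 4.24 for 9 loci with that prefix.

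UGT, enzymes that attach sugars to small molecules, was the largest group, with 47 loci and a median of 6.94. Of these, 13 (27.7%) ranged over 1 log2 unit or more. The share was 7.53% of all named loci and 13.0% of those above the median probe set, where 24 of the 47 lay. All 13 were lowest in replicate 1, as were 507 of the 1000 named loci with that range. UGT84A3, which glucosylates phenylpropanoid acids, stood at 6.08, 10.02 and 9.63 in replicates 1, 2 and 3. UGT76E11 stood at 6.13, 8.87 and 8.74, and UGT76B1, which acts on immune signals, at 7.27, 9.63 and 9.56. The brightest, UGT88A1, averaged 10.61 ± 0.34 (SD, n = 3) and was instead highest in replicate 1. Without replicate 1, 1 of the 47 differed by 1 log2 unit or more. The GH prefix joined loci with 2 kinds of symbol, GH3 and GH9. Of its 19 loci, 4 (21.1%) ranged over 1 log2 unit or more, beside the same 7.53%. All 4, which included both kinds, were highest in replicate 1, as were 489 of the 1000 named loci with that range. Other prefixes had similar shares, with 25% for ALDH and 20% each for RALFL, EXPA and IQD.

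The spread over the 3 arrays was smaller at the dim end and nearly constant over the brighter part of the scale. The median SD over all probe sets was 0.18, with 25th and 75th percentiles of 0.11 and 0.30. In the dimmest 10% of probe sets the median SD was 0.11 and 0 of 2275 ranged over 1 log2 unit or more. In the brightest 10% the median SD was 0.23 and 312 of 2275 (13.7%) did so. Between these ends the probe sets were divided into 10 classes by mean level, numbered from the dimmest. From class 5 to class 10 the median SD stayed between 0.22 and 0.23. The share with that range stayed between 12.3% and 14.9%, highest in class 6. The dimmest 10% had means from 3.35 to 4.19, close to the bacterial control, and the part of this floor in their small spread was not tested. The pair of replicates 2 and 3 did not have its smaller difference at the dim end, with a median absolute difference of 0.16 in the dimmest 10% and 0.12 in the brightest. The pair of replicates 1 and 2 had 0.07 and 0.34. Replicate 3 was the highest array for 83.3% of the dimmest 10%, the array with the highest bacterial control values, and for 46.3% of the brightest.

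**Figure D4:**
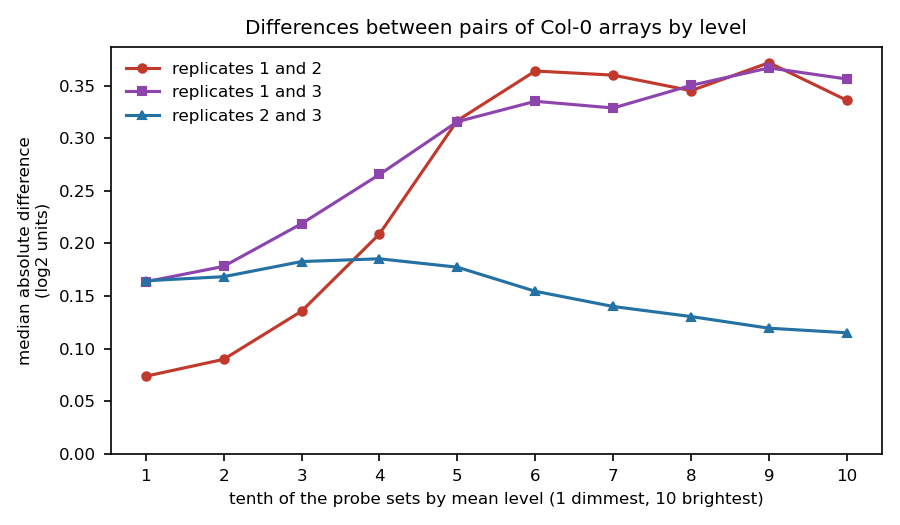
Median absolute difference between pairs of Col-0 arrays, in log2 units, for the probe sets divided into 10 classes of equal size by mean level. Both pairs with replicate 1 lie between 0.34 and 0.36 among the brightest probe sets, while replicates 2 and 3 lie at 0.12.

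Over all probe sets, 2048 (9.00%) had a range of 1 log2 unit or more. Replicate 1 was the array farthest from the middle value in 1992 of these, on the high side in 914 and on the low side in 1078. At a range of 3 or more, 83 probe sets remained, and replicate 1 was the array apart in all of them, high in 27 and low in 56. Among the 5983 named loci brighter than the median probe set, 778 (13.0%) ranged over 1 log2 unit or more.

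The loci that swung most were chosen by their range and are described without a test. The 20 with the largest ranges spanned from 3.38 to 6.34 log2 units, and in all 20 replicate 1 was the array apart, low in 17 and high in 3. COR27, a cold-regulated gene of the evening that feeds back on the circadian clock, stood at 4.33 in replicate 1 and 10.56 and 10.67 in replicates 2 and 3. AT4G33980, also known as COR28 and its closest relative in that role, stood at 4.50, 10.30 and 10.41. The replicate 1 values of both were near the bacterial control, and those of the other arrays were in the upper part of the scale.

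The other loci low in replicate 1 were of mixed function. AT2G16660 and AT4G34950, transporters of the major facilitator family, stood at 6.04, 11.53 and 11.69 and at 6.38, 11.47 and 11.49 in replicates 1, 2 and 3. AT1G56300, of the DnaJ chaperone family, stood at 5.18, 10.45 and 10.56, and AT1G07050, with the CCT domain found in CONSTANS and clock proteins, at 4.49, 9.00 and 9.34. AT5G62360, of the inhibitors of invertases and pectin methylesterases, stood at 5.98, 10.25 and 10.35, and AT1G57590, of the pectin acetylesterases, at 5.84, 9.60 and 9.22. AT2G21130, a cyclophilin, stood at 6.17, 9.56 and 9.66. The defensin gene PDF1.2b stood at 5.36, 9.02 and 8.97, and UGT73C1 at 4.72, 8.44 and 7.65. In each of these genes replicates 2 and 3 lay far closer to each other than to replicate 1.

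The 3 loci high in replicate 1 were AT5G48490, AT5G16030 and AT1G65490. AT5G48490, of the lipid-transfer protein family, stood at 12.82, 8.42 and 8.38 in replicates 1, 2 and 3. AT5G16030 stood at 12.38, 8.65 and 8.65, and AT1G65490 at 11.20, 7.87 and 7.63. On replicate 1 alone AT5G48490 lay within the range of the 30 brightest loci, above 5 of them, whereas its mean of 9.87 put it at percentile 93.3 of the named loci. A mean over the 3 arrays describes none of the arrays for these 20 loci.

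**Figure D5:**
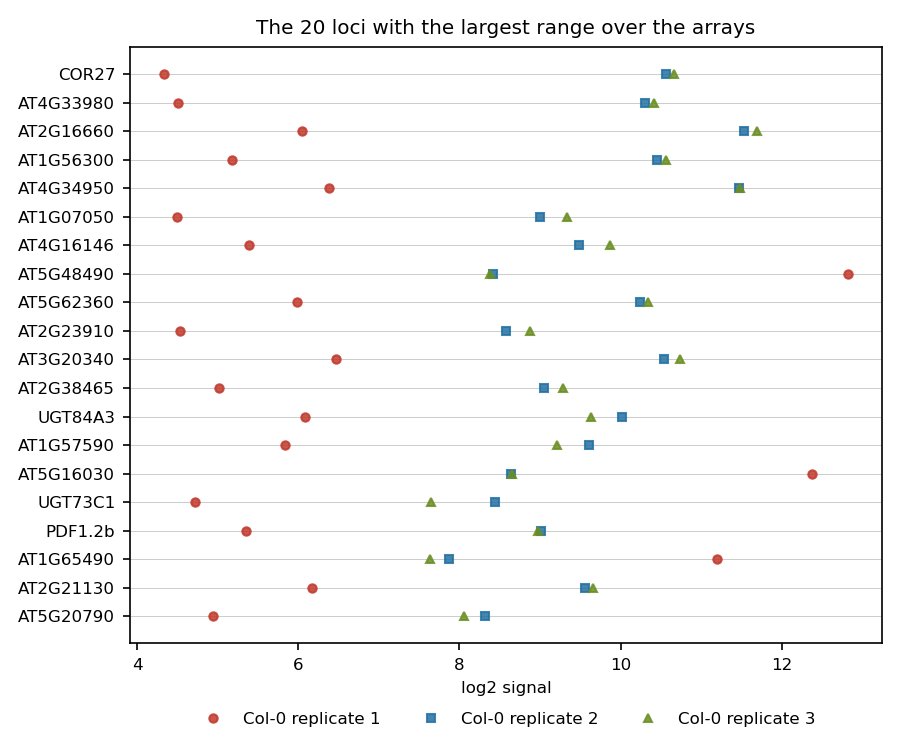
The 20 loci with the largest range over the arrays among named loci brighter than the median probe set, widest at the top. The x axis is the log2 signal and the 3 symbols are the 3 Col-0 arrays. Replicate 1 lies alone in every row, low in 17 and high in 3, and COR27 has the widest gap (4.33 against 10.56 and 10.67).

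The steadiest bright loci had ranges from 0.0024 to 0.031 log2 units. AT2G35450 stood at 8.69, 8.70 and 8.69 in replicates 1, 2 and 3, and AT4G35750 at 11.51, 11.51 and 11.51. AT1G12250, a pentapeptide-repeat protein of the thylakoid lumen, stood at 10.60, 10.58 and 10.59. The list also held AT1G20580, for the splicing protein SmD3, at 9.31, 9.31 and 9.32, and CYTC-2, a cytochrome c of mitochondrial respiration, at 8.94, 8.94 and 8.91. The order changes with small shifts of whole arrays: after each array was centred on its median, 0 of the 15 stayed among the 15 steadiest.

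A check within loci shows how far a level belongs to the probe set. A total of 144 loci had several probe sets, 294 in all. The difference between the brightest and the dimmest probe set of a locus had a median of 1.92 log2 units, and it was 1 or more in 98 loci (68.1%). AT4G16980 read 12.27, 11.65 and 11.69 by one probe set and 5.67, 5.06 and 5.15 by another in replicates 1, 2 and 3. SDH2-1, for the iron-sulfur subunit of mitochondrial complex II, read 9.58, 10.09 and 10.27 by one and 4.33, 4.31 and 4.41 by another. These gaps were far larger than the SD over arrays of either probe set (0.33 and 0.35 for AT4G16980, 0.05 and 0.36 for SDH2-1).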

How the data were processed

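The values are log2 signals of ATH1 probe sets from RNA of whole seedlings, deposited by the authors as 1 table, and the log2 scale was read from the values. Affymetrix Expression Console is the tool named, per the submitters' processing notes. The algorithm, version and any normalization between arrays are not given in the sources used here. Loci come from a platform annotation, matched to RefSeq's TAIR10.1 table, which was used only for names: 503 probe sets with several loci, 77 outside the gene table and 8730 not listed stay unnamed.

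With Python 3.11.15 and pandas 2.3.3, each probe set got its mean, SD and range over the 3 Col-0 arrays. Rank and percentile are over loci, represented by their brightest probe set. With 1 group there was no test and no p-value, and precision is limited by having 3 arrays. The ranking and range steps were tested on simulated data. Named genes are the 30 brightest and 15 dimmest loci, the 20 with the largest range above the median probe set, the 15 steadiest above the 75th percentile, the 5 loci with the largest gap between probe sets, and marker list members, of which not all are printed. Pseudogenes and gene families were named after their values were seen, and some families are not reported here. Members and lists were chosen with earlier results of these data known. Roles of loci without a symbol are background knowledge. Promoter motifs and protein lengths were not analysed here.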

Additional observations from a re-analysis of the deposited data

How the results depend on the processing

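Of 122 summary values under 14 alternatives, 109 stayed within 1.5 times of the reported count or within the SD over arrays of the reported level. The 30 brightest kept 26 to 30 members in every alternative run. The 15 dimmest kept 9 with the median of the arrays and 11 to 12 without single arrays. The 20 loci of largest range kept 12 above the 75th percentile and 1 to 18 without single arrays, 1 of them without replicate 1. The 15 steadiest kept 0 with quantile normalization, 0 with median centring, 8 above the median and 1 to 4 without single arrays. The 2048 probe sets with a range of at least 1 became 336 at a range of at least 2 and 18 to 1691 without single arrays, 18 without replicate 1. The median SD of 0.18 became 0.107 to 0.187 without single arrays. The count of 1563 loci at or below the bacterial control became 882 when each array's own control value applied, an alternative added with the values known, like the others for that count. The medians of the 7 marker lists and 3 locus classes recomputed moved by at most 0.43, for the stress list without replicate 2 (8.15 against 8.58). Of the levels of 105 named loci, 20 moved by 1 log2 unit or more without replicate 1, 17 with the median of the arrays, 1 without replicate 2 and 2 without replicate 3. The widest move was that of COR27, to 10.61 without replicate 1 against 8.52. With the mean of its probe sets AT2G35450 stood at 7.74. Leaving out 1 of 3 arrays cannot move a mean by the SD of the arrays, and median centring cannot move it at all, so staying within the SD says nothing there. Apart from fewer arrays, the cause was not tested. The motif and protein length alternatives were not run. No paired analysis was possible because 1 group was described and no test was made. Without detection calls, dim loci could not be set against background beyond the bacterial controls.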
